A study of Mus musculus with 6 samples.

Results

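The genes Pbld1, Casc4, Trim69, P2rx7, Foxr1, Gm7827 and Bc1 were examined in BaF3 cells given the mutated form of the Notch1 intracellular domain (CTdel), its unmutated form (ICN) or neither (con). These 7 genes, of 16799 measured in both deposited tables, were selected on their deposited FPKM, because the level in ICN lay above those in CTdel and in con in both replicates. Their ICN levels are therefore given as a description. Their level in CTdel against con, a contrast that the choice did not set, was tested. The choice did hold CTdel and con below ICN, so a rise in CTdel up to the ICN level was selected against. BaF3 is a mouse pro-B cell line that needs interleukin-3, and all cells were grown with 2 ng/mL of it and sorted 24 h after nucleofection. The CTdel cells received pmax-Clover-CTdel, the ICN cells pmax-Clover-ICN and the con cells pmax-Clover, a plasmid for the green fluorescent protein Clover, so that every group carried Clover. The sources used here say neither what CTdel stands for nor which part of Notch1 it keeps, and give no species for ICN. Each group had 2 libraries, not stated to come from separate cultures, so p-values measure only the spread between these libraries.

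Notch receptors release their intracellular domain, ICN, into the nucleus, where it binds the DNA-binding protein RBPJ and turns on target genes with the help of Mastermind. The C-terminal part of ICN holds a PEST region through which the protein is degraded, and mutations that remove it are found in chronic lymphocytic leukemia. The 7 genes are not a pathway. Trim69 encodes a ubiquitin ligase, P2rx7 an ion channel opened by extracellular ATP, Foxr1 a forkhead transcription factor, Casc4 (Golm2 in RefSeq) a membrane protein related to the Golgi protein GOLM1, and Pbld1 a protein with a phenazine biosynthesis-like domain. Gm7827 is a predicted gene that the authors' deposited table labels as a POTE ankyrin domain family protein. Bc1 is a small non-coding RNA made by RNA polymerase III and best known from dendrites of neurons.

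The sequence of Bc1 is shown because its repeats bear on what was counted. The RNA is annotated at chr7:144914470-144914637 on the plus strand of GRCm38 (GENCODE M21, 168 bases; RefSeq ends the gene at 144914623). Capitals mark the 2 internal promoter elements of polymerase III genes, the A box (bases 14 to 24) and the B box (GGTTCG, bases 57 to 62).
Bc1: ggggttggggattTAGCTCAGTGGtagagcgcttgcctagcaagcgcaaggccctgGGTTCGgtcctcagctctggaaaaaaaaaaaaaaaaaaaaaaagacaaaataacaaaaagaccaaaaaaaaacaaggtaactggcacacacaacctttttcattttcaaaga
Both boxes in the first 168 bases were found in 0.00296% of 135207 transcripts of at least that length. A run of 23 A bases follows at bases 77 to 99. The first 108 bases consist of stretches of 25 bases that also occur in transcripts of 348 other genes, and 31.1% of its 50-base windows were shared with 5 genes. Reads of Bc1 and of those repeats may therefore be split by the authors' counting, and its level is uncertain to that extent.

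RefSeq start windows, 250 bases before to 50 after a transcript start, were matched by gene ID for all 7 genes, 10 windows in all on GRCm38.p6. They are shown because RBPJ, the partner of ICN, binds TGGGAA. The letters TGGGAA, on either strand, were in 3 of the 10 windows and in 3 of the 7 genes, against 25.6% of 32851 windows and 28.3% of 27025 genes in the RefSeq table. The longer GTGGGAA, which contains it, was in 1 window, that of Gm7827, and in 6.38% of all windows. This window lies inside the span of Gm7827, chr8:71091701-71171456, and neither end of that span had a window. The core of the interferon-stimulated response element, searched on both strands, was in 0 of the 10 windows and in 3.44% of all windows. These are matches of letters, not sites. The 3 windows with the match follow, all on the plus strand, with TGGGAA in capitals.
Gm7827, chr8:71140119-71140418, match 13 bases before the start: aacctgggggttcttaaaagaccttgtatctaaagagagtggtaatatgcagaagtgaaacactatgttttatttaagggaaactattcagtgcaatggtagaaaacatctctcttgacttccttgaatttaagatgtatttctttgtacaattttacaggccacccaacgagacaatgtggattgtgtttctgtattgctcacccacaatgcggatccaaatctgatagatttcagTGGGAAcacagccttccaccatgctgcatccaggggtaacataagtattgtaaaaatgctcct
Pbld1, the second start, chr10:63061339-63061638, match 87 bases before the start: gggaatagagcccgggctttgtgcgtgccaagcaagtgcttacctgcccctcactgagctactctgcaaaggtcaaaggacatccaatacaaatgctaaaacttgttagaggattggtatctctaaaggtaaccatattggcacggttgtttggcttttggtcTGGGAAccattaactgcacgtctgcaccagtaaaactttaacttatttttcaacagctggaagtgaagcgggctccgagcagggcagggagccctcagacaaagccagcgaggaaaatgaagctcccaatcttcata
P2rx7, the second start, chr5:122650133-122650432, match 187 bases before the start: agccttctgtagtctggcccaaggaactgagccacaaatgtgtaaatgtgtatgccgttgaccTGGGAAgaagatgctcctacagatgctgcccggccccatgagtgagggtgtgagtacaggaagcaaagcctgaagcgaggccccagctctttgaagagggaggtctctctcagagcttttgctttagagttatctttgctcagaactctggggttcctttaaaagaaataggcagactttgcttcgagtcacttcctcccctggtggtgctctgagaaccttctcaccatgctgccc
The 10 windows held between 2 CpG pairs (Gm7827) and 37 (Casc4), with a median of 7.5 against 7 over all windows. Casc4 is thus the gene with the CpG-rich start, while the median GC content of the 10 windows was 48.2% against 52.7% over all windows.

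Values are FPKM, fragment numbers corrected for the length of the transcript and the size of the library, as the authors deposited them, in a table for each replicate number. FPKM summed to 489693 to 507894 in each library, and relative depth, read from the smallest steps of short RNA genes, ran from 0.963 to 1.08. Read totals are unknown. Between 14951 and 16946 genes were above 0 in a library. Notch1, the gene carried by the CTdel and ICN plasmids, had 84.94 and 25.36 FPKM in CTdel, 190.02 and 888.47 FPKM in ICN and 0.89 and 1.72 FPKM in con (replicates 1 and 2). CTdel and ICN thus lay above con in both tables, CTdel lay below ICN in both, and ICN replicate 2 had 4.68 times the level of ICN replicate 1. Because the part of Notch1 in CTdel and the species of ICN are not given, Notch1 FPKM of CTdel and ICN need not show their RNA amounts on the same scale. The IL-3 receptor chains that BaF3 needs were present, with Csf2rb at 165.75 to 296.52 FPKM over all 6 libraries, whereas the B-lineage markers Ebf1, Igll1, Il7r, Rag1, Rag2 and Vpreb1 were at 0.37 FPKM or less. In bulk libraries, more cells expressing a gene and more RNA per cell cannot be told apart.

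Trim69, whose RING finger protein is known from work on cell division and viral replication, stayed at low levels. It had 0.92 and 0.46 FPKM in CTdel, 3.3 and 9.12 FPKM in ICN and 0.18 and 0.25 FPKM in con (Gene ID 70928, chr2:122160708-122179022). The 3 groups did not overlap, with ICN highest and con lowest. ICN exceeded CTdel 3.59 and 19.8 times and con 18.3 and 36.5 times in the tables of replicates 1 and 2. Even in ICN, Trim69 lay above only 26.1% of tested genes.

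P2rx7, the channel that opens at high extracellular ATP and triggers the inflammasome in macrophages, varied most between the ICN libraries. It had 4.44 and 3.4 FPKM in CTdel, 11.68 and 75.39 FPKM in ICN and 1.85 and 3.56 FPKM in con (Gene ID 18439, chr5:122643927-122692336). CTdel and con overlapped, and both ICN libraries lay above them, ICN replicate 2 by the wider margin. The ICN mean of 43.5 ± 45 FPKM (SD, n = 2) had a spread as large as itself. Of the other P2X receptors, P2rx2, P2rx3, P2rx5 and P2rx6 were at 0.06 to 1.07 FPKM over the 6 libraries. P2rx1 was lowest in ICN, with 16.58 and 29.3 FPKM in CTdel, 11.89 and 12.07 FPKM in ICN and 16.78 and 21.56 FPKM in con. P2rx4, whose gene starts 15182 bases after P2rx7, had 25.21 and 9.58 FPKM in CTdel, 29.63 and 18.32 in ICN and 21.83 and 6.35 in con.

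Foxr1, a forkhead factor with known expression in germ cells, had 1.26 and 1.53 FPKM in CTdel, 4.28 and 17.49 FPKM in ICN and 1.74 and 3.92 FPKM in con (Gene ID 382074, chr9:44434234-44440868). Both CTdel libraries lay below both con libraries, and both ICN libraries lay above. The lower ICN library, at 4.28 FPKM, was close to con replicate 2 at 3.92 FPKM, so those groups were only narrowly apart. Within the tables ICN was 2.46 and 4.46 times con and 3.4 and 11.4 times CTdel.

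Pbld1 and Casc4 gave the most even ICN levels. Pbld1 (Gene ID 68371, chr10:63060625-63077964) had 0.55 and 0.2 FPKM in CTdel, 20.96 and 23.02 FPKM in ICN and 0.31 and 0.45 FPKM in con. The ICN libraries were close to each other and the other 4 libraries were all under 1 FPKM. The ICN mean was 22 ± 1.46 FPKM (SD, n = 2), 67.6 and 51.2 times con and 38.1 and 115 times CTdel. Of its 50-base windows 17.1% occurred in other genes, 255 of them, among which was its paralogue Pbld2. Pbld2, which ends 1812 bases before Pbld1, was at 0.04 to 0.13 FPKM over the 6 libraries.

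Casc4 (Gene ID 319996, chr2:121866970-121936220) had the highest mean outside ICN after Bc1, with 6.56 and 1.8 FPKM in CTdel, 23.66 and 18.38 FPKM in ICN and 3.76 and 3.14 FPKM in con. The CTdel libraries lay on either side of the con libraries. ICN was 6.29 and 5.85 times con and 3.61 and 10.2 times CTdel, the CTdel libraries differing more than the ICN libraries. Casc4 and Trim69 lie on the same chromosome, 224488 bases apart, with 5 measured genes between them.

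Gm7827 (Gene ID 665858, chr8:71091701-71171456) had 1.19 and 1.07 FPKM in CTdel, 5.51 and 19.08 FPKM in ICN and 0.09 and 0.73 FPKM in con. The 3 groups did not overlap, in the same order as for Trim69. Within tables ICN was 61.2 and 26.1 times con, a ratio that rests on con values under 1 FPKM, and 4.63 and 17.8 times CTdel. Bc1 (Gene ID 100568459) was abundant in every library, with 294.43 and 99.31 FPKM in CTdel, 857.67 and 602.53 FPKM in ICN and 419.12 and 183.45 FPKM in con. CTdel and con overlapped. Bc1 lay above 97.1% of tested genes in CTdel, 99% in ICN and 98.3% in con, and ICN was 2.05 and 3.28 times con, the smallest ratios among the 7 genes in the table of replicate 1 and in that of replicate 2.

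**Figure D1:**
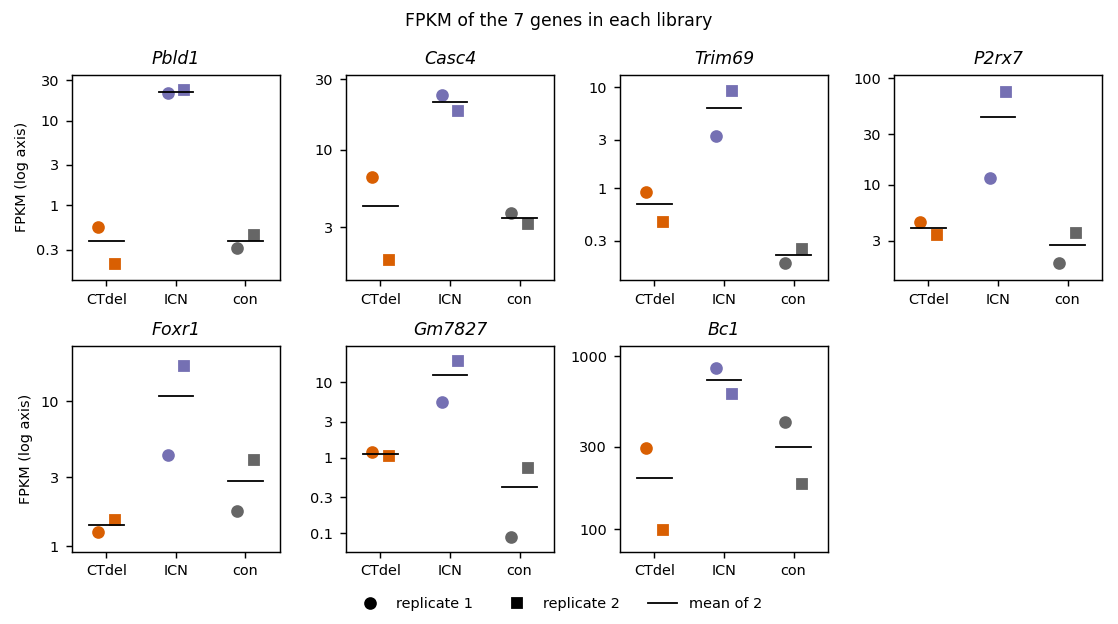
FPKM (log axis, its own range in each panel) of the 7 genes in the CTdel, ICN and con libraries, with circles for replicate 1, squares for replicate 2 and a line at the mean of 2. In each panel both ICN points lie above the other 4, and for P2rx7, Foxr1, Gm7827 and Trim69 the ICN square lies above the ICN circle.

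The choice of the genes fixes that ICN is highest, so the share of other genes with the same order gives its background. ICN lay above CTdel and con in both tables for 1951 of the 11050 genes with at least 1 FPKM in at least 2 libraries, which is 17.7%, and for 7 of 7 here. All 7 genes passed that filter on low values, Pbld1 and Trim69 through their ICN libraries alone. At least a 2-fold excess over the higher of CTdel and con in both tables was found for 69 genes (0.624%), the 7 among them, and at least a 4-fold excess for 13 genes (0.118%), among them Pbld1 and Gm7827. The lowest ICN library lay above the highest CTdel or con library for 11.0% of genes and for 7 of 7 here. The smaller of the ratios in the 2 tables was 38.1 for Pbld1, and that of Rny1, a Y RNA gene and the next below it, was 5.39. These ratios rest on CTdel and con values of 0.55 FPKM or less for Pbld1 and 0.67 FPKM or less for Rny1. Bc1, at 2.05, was the gene of the 7 nearest to 2-fold, with Syt11 at 1.97 and C3ar1 at 1.96 just under it. The other 6 genes lay among genes with similar ratios.

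**Figure D2:**
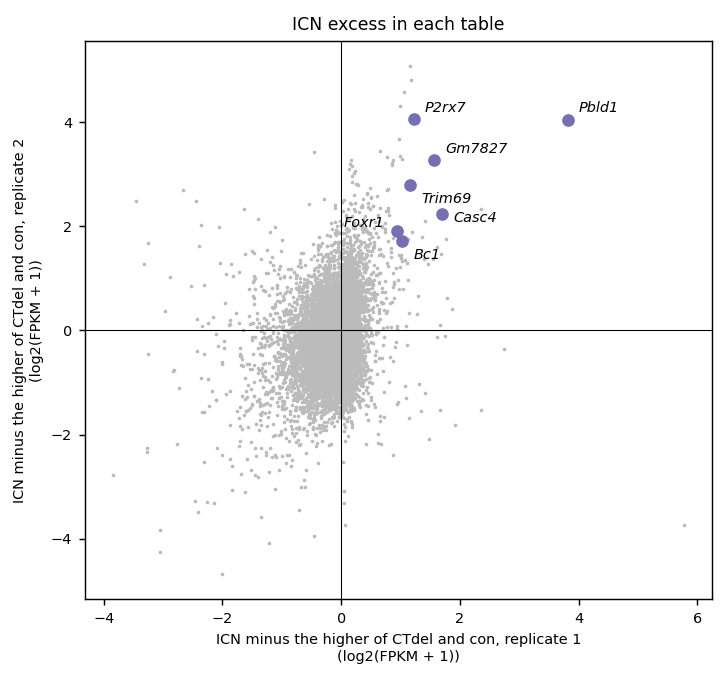
Difference between ICN and the higher of CTdel and con, in log2(FPKM + 1), in the table of replicate 1 (x axis) and of replicate 2 (y axis) for tested genes (grey) and the 7 genes (purple, named). Pbld1 lies at the upper right, P2rx7, Gm7827, Trim69 and Foxr1 lie higher on the y axis than on the x axis, and Casc4 and Bc1 also lie above 0 on both axes.

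The question left to test was whether CTdel changed any of the genes relative to con. In limma on log2(FPKM + 1), with Benjamini-Hochberg adjustment over 11050 genes, 0 of the 7 genes passed an adjusted p of 0.05, against 1.41% of all tested genes (144 genes or 1.30% higher, 12 genes or 0.109% lower). At an unadjusted p under 0.05 there were also 0 of 7, against 11.8%. The CTdel and con libraries are the same ones that stand under ICN in the choice of genes. A gene raised in CTdel above ICN could not be chosen, so 0 of 7 is in part fixed by the choice. In the contrasts that the choice used, 0.0362% of all tested genes passed in ICN against con and 0.0181% in CTdel against ICN, and nothing is read from the 7 genes there. Pbld1 had a fitted difference of −0.02 ± 0.249 (CTdel minus con, log2 scale ± SE, 95% interval −0.63 to 0.60, limma adjusted p = 0.993), and its sign differed between the tables, 0.24 in replicate 1 and −0.27 in replicate 2. For Casc4 it was 0.05 ± 0.341 (interval −0.79 to 0.89, limma adjusted p = 0.98), again with opposite signs, 0.67 and −0.56. Both intervals reach less than 1 unit on the log2 scale from 0, which for Pbld1 follows in part from values under 1 FPKM. On this scale changes of genes near or under 1 FPKM are understated. Pbld1 and Trim69 were under 1 FPKM in every CTdel and con library, so the test could hardly call them. Their small values do not show equal levels, and 0 of 7 is no result about these genes.

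P2rx7 had the widest interval, from −1.14 to 2.02 around 0.44 (limma adjusted p = 0.863). A rise as large as 2.02 and a difference as low as −1.14 on the log2 scale thus lay within the spread. That spread is estimated over all 6 libraries, so the distance between the ICN libraries, 11.68 and 75.39 FPKM, widened it. With only CTdel and con fitted, limma adjusted p was 0.498 for P2rx7 and 0.0704 for Bc1, and 0 of the 7 genes passed. Trim69 and Gm7827 had CTdel above con in both tables, by 0.70 and 0.22 and by 1.01 and 0.26 on the log2(FPKM + 1) scale, as 26.2% of all tested genes did. Neither passed, with fitted differences of 0.46 ± 0.418 (limma adjusted p = 0.769) and 0.63 ± 0.417 (limma adjusted p = 0.67). Both CTdel libraries above both con libraries, as in these 2 genes, occurred in 18.3% of all tested genes. Foxr1 and Bc1 had CTdel below con in both tables, by −0.28 and −0.96 and by −0.51 and −0.88, an order found in 35.8% of all tested genes. Foxr1 alone of the 7 had both CTdel libraries below both con libraries, as did 23.5% of all tested genes. For Bc1 the fitted difference was −0.69 ± 0.288 (interval −1.40 to 0.02, limma adjusted p = 0.435, or 0.054 before adjustment) and for Foxr1 −0.62 ± 0.401 (interval −1.61 to 0.37, limma adjusted p = 0.664). The signs of Casc4, Trim69 and P2rx7 turned when CTdel replicate 1 was left out, to −0.53, −0.06 and −0.53. That of Casc4 also turned without con replicate 1, to −0.29, and that of Pbld1 without CTdel replicate 2 (0.24) or con replicate 2 (0.12). In all 7 genes CTdel minus con was higher in the table of replicate 1 than in that of replicate 2, as it was in 45.9% of all tested genes. Notch1 in CTdel was also higher in replicate 1 (84.94 FPKM) than in replicate 2 (25.36 FPKM), and its part in that difference was not tested.

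**Figure D3:**
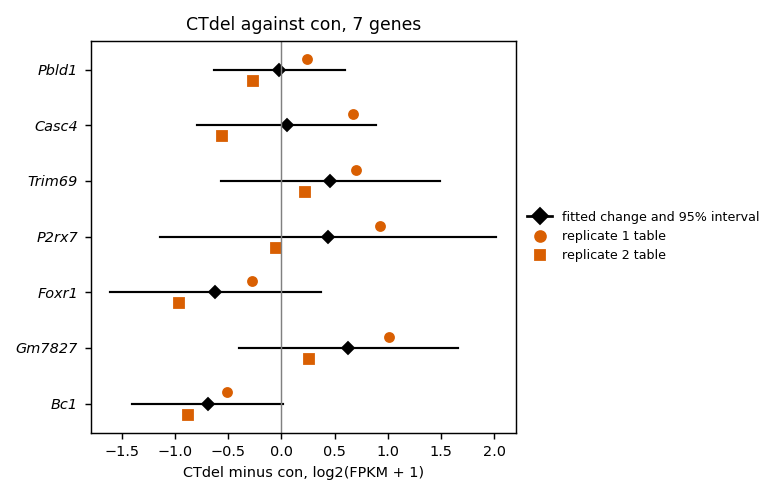
Difference between CTdel and con in log2(FPKM + 1) for the 7 genes, with the fitted value and its 95% interval (diamond and bar) and the value within each table (circle, replicate 1; square, replicate 2). All 7 intervals include 0, and the circle lies to the right of the square for each gene.

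The ICN libraries split the genes into those that were level between replicates and those higher in replicate 2. P2rx7 was 6.45 times, Foxr1 4.09 times, Gm7827 3.46 times and Trim69 2.76 times as high in ICN replicate 2 as in ICN replicate 1. Pbld1 had a ratio of 1.1, Casc4 of 0.777 and Bc1 of 0.703. Over all tested genes the median ratio was 0.978, and 5.22% were at least 2-fold higher in replicate 2, a share that was 13.5% among the 1951 genes with ICN highest in both tables and 37.7% among the 69 at least 2-fold higher there, which hold the 7. The 4 genes that were higher in ICN replicate 2 went with Notch1, whose ratio between the ICN libraries was 4.68. Between the CTdel libraries, where Notch1 had a ratio of 0.299, the order was another one, with Casc4 at 0.274, Bc1 at 0.337, Pbld1 at 0.364 and Trim69 at 0.5 nearest to it, and P2rx7 at 0.766, Gm7827 at 0.899 and Foxr1 at 1.21. In the ICN libraries the 4 genes also went with 28 interferon-response genes, whose summed FPKM was 2021.8 and 2287.2 in CTdel, 2135.2 and 6261 in ICN and 949 and 480 in con. Of those 28 genes 0 passed the limma test (16 in CTdel and 27 in ICN against con at an unadjusted p under 0.05), with median differences from con of 1.66 in CTdel and 2.64 in ICN. The part of the Notch1 level and of the interferon genes in these differences was not tested. Since CTdel had lower Notch1 FPKM than ICN in both tables, the form of the domain and its level cannot be told apart in any comparison of CTdel with ICN.

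**Figure D4:**
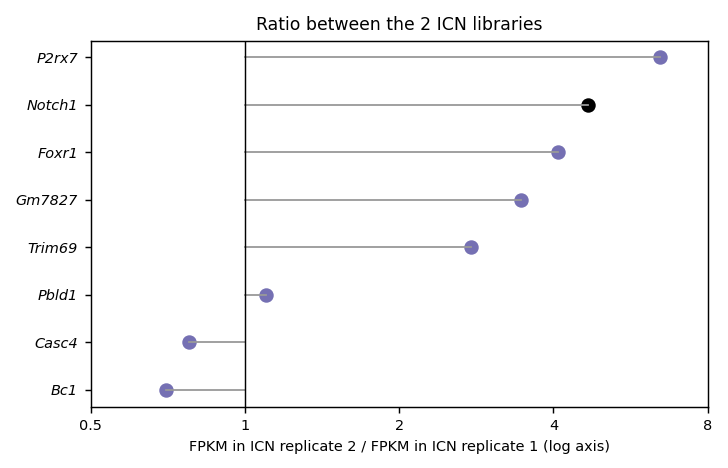
Ratio of FPKM in ICN replicate 2 to FPKM in ICN replicate 1 (log axis) for the 7 genes (purple) and for Notch1 (black), with a line at 1. P2rx7 (6.45), Foxr1 (4.09), Gm7827 (3.46) and Trim69 (2.76) lie near Notch1 (4.68), and Pbld1, Casc4 and Bc1 lie between 0.703 and 1.1.

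The neighbours of the 7 genes on the chromosome, which the choice did not use, were examined next. Of the 2 nearest measured genes on each side, 28 in all, 18 passed the filter, and 0 passed the limma test in any of the 3 comparisons. At an unadjusted p under 0.05 there were 2 of 18 in CTdel against con (11.8% of all tested genes), 6 of 18 in ICN against con (15.0% of all) and 2 of 18 in CTdel against ICN (7.13% of all). Their median difference between ICN and con was 0.04 on the log2 scale (range −0.82 to 1.24), against 0.00 over all tested genes. ICN lay above CTdel and con in both tables for 22.2% of them, against 17.7% of all. Within 500 kb, 111 tested genes gave 13.5%, and 1 of them passed in CTdel against con, Lrrc25, at a distance of 470851 bases from Gm7827 (log2 difference 2.31, limma adjusted p = 0.0272). It no longer passed without CTdel replicate 1, CTdel replicate 2 or con replicate 1 (limma adjusted p = 0.0525, 0.0604 and 0.0589). Lrrc25 had 6.12 and 4.05 FPKM in CTdel, 1.8 and 0.43 FPKM in ICN and 0.3 and 0.12 FPKM in con, an order unlike that of Gm7827.

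The neighbour most like its gene was Gm38415, a lncRNA gene that shares 5413 bases with Gm7827 and was picked after its values were seen. It had 0.4 and 0.27 FPKM in CTdel, 1.74 and 2.47 FPKM in ICN and 0.37 and 0.25 FPKM in con, with both ICN libraries above the other 4. Its ICN minus con difference was 1.24 (limma adjusted p = 0.176), which passed only without ICN replicate 1 (1.48, limma adjusted p = 0.0357) among the settings run, and its CTdel minus con difference 0.03 (limma adjusted p = 0.986). Strand was not stated for the authors' counting, so reads in the shared part cannot be assigned to either gene, and the same holds for Trim69 and Patl2, which overlap. B2m, the light chain of MHC class I that ends 7626 bases before Trim69, had 1592.65 and 889.19 FPKM in CTdel, 1275.6 and 1357.82 FPKM in ICN and 930.07 and 331.92 FPKM in con, and did not pass in ICN against con (1.24, limma adjusted p = 0.255). Patl2 was at 0.52 and 0.23 FPKM in CTdel, 0.63 and 0.27 FPKM in ICN and 0.04 and 0.04 FPKM in con. At Bc1, Oraov1 starts 477 bases past the end of the gene and was level, with 6.99 and 7.28 FPKM in CTdel, 7.96 and 7.96 FPKM in ICN and 8.91 and 7.22 FPKM in con.

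**Figure D5:**
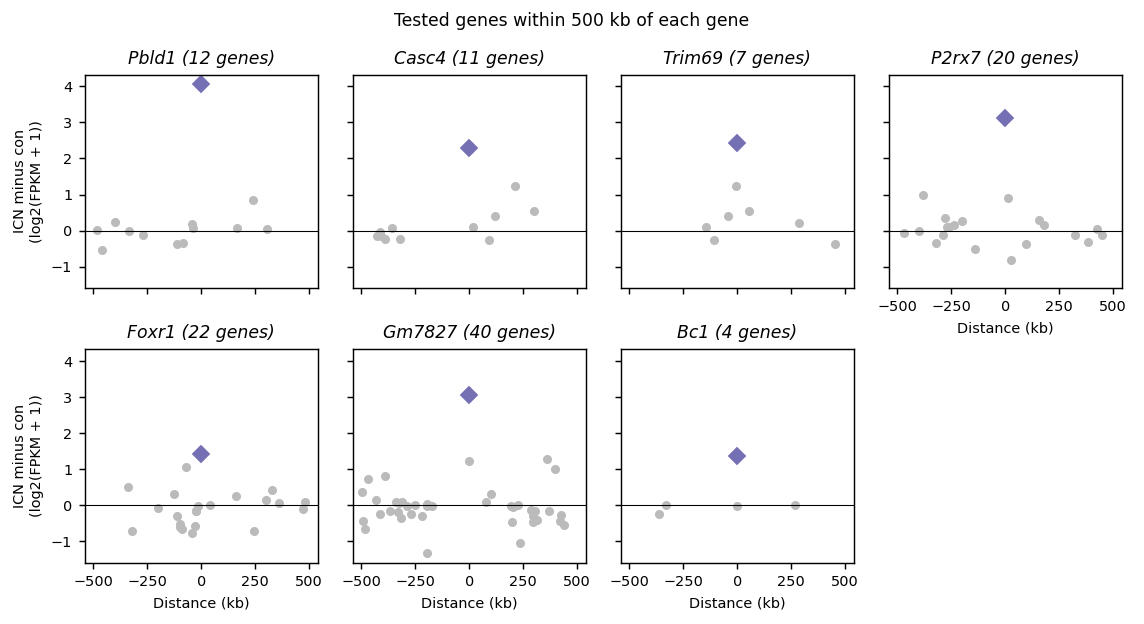
Fitted difference between ICN and con in log2(FPKM + 1) against distance in kb, for each of the 7 genes (purple diamond at 0) and the tested genes within 500 kb (grey, their number in the title). The diamond is the highest point of each panel, the 7 genes themselves being left out as neighbours, and the grey points lie between −1.32 and 1.28.

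Lists of partners and relatives of the 7 genes were measured beside them. Over all 6 lists 1 gene was called in any comparison, and without ICN replicate 1 there were 64. The median difference of all tested genes was −0.06 in CTdel and 0.00 in ICN against con. Of 15 tested purinergic receptor and inflammasome genes, partners or relatives of P2rx7, 0 passed (7 and 8 at an unadjusted p under 0.05 in CTdel and in ICN against con), with medians of 0.53 (CTdel against con) and 0.51 (ICN against con). Casp1, the inflammasome protease, had 34.23 and 21.88 FPKM in CTdel, 35.43 and 29.94 in ICN and 16.64 and 8.98 in con, so that its values in CTdel and ICN lay above con (limma adjusted p = 0.112 for CTdel and 0.144 for ICN). Unlike P2rx7, Casp1 was at similar levels in CTdel and ICN. Nlrp3, with the smallest p of this list in CTdel against con (limma adjusted p = 0.0861), was highest in CTdel. It had 9.25 and 1.84 FPKM in CTdel, 2.94 and 0.67 in ICN and 0.38 and 0.1 in con. Of 41 tested TRIM genes, relatives of Trim69, 0 passed (7 and 13 unadjusted), with medians of 0.02 in CTdel and 0.29 in ICN. Trim30d, of an interferon-inducible group, had 5.62 and 9.16 FPKM in CTdel, 7.34 and 31.8 in ICN and 1.93 and 0.97 in con, with ICN replicate 2 highest as for Trim69 (ICN minus con 2.78, limma adjusted p = 0.169). Trim30b had the smaller adjusted p (ICN minus con 1.71, limma adjusted p = 0.144). It had 2.42 and 4.1 FPKM in CTdel, 1.82 and 4.77 in ICN and 0.21 and 0.25 in con. Unlike Trim69, Trim30b was thus at similar levels in CTdel and ICN. Of 10 tested forkhead genes 0 passed (0 and 2 unadjusted, medians 0.04 and 0.11), and the smallest limma adjusted p for ICN was 0.315, for Foxo3.

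Among 11 tested polymerase III RNAs and partners of BC1 RNA, 0 passed (0 and 2 unadjusted), with a median of −0.02 in CTdel and −0.18 in ICN against con. The Y RNA gene Rny1 had 0 and 0.67 FPKM in CTdel, 2.19 and 3.61 FPKM in ICN and 0 and 0.65 FPKM in con, and the 7SK RNA gene Rn7sk had 18.07 and 3.36 FPKM in CTdel, 23.51 and 15.45 FPKM in ICN and 1.41 and 7.71 FPKM in con. Neither passed in ICN against con (limma adjusted p = 0.123 and 0.329). Of 7 tested canonical Notch targets, 1 passed, Dtx1, in CTdel against con. At an unadjusted limma p under 0.05 there were 3 in CTdel and 5 in ICN against con (11.8% and 15.0% of all tested genes). Their medians were −0.07 and −0.22, and 3 of the 7 lay above con in the ICN fit. Hes1, Hes5 and Nrarp did not pass the filter on low values, at 0.37 FPKM or less in every library. Dtx1, a regulator of Notch signalling, ran the other way from the 7 genes, with 15.51 and 8.71 FPKM in CTdel, 2.86 and 1.02 FPKM in ICN and 0 and 0.05 FPKM in con (CTdel minus con 3.63, limma adjusted p = 0.017). Dtx1 was thus above con in CTdel and in ICN and highest in CTdel. Ptcra, a Notch target of T cells, had the order of the 7 genes, with 1.52 and 0.98 FPKM in CTdel, 4.12 and 4.95 FPKM in ICN and 1.47 and 1.37 FPKM in con (ICN minus con 1.19, limma adjusted p = 0.169).

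Markers of other cell types, among them tissues where some of the 7 genes are known to be expressed, were summed in each library. Of 6 neuron markers 4 were measured, and their summed level was 0.98 and 0.94 FPKM in CTdel, 1.14 and 1.27 in ICN and 0.95 and 0.43 in con, highest in ICN by a small margin. Male germ cell markers, 3 of 6 measured, summed to 0.7 and 0.24 FPKM in CTdel, 0.43 and 2.92 in ICN and 0.46 and 0.4 in con. Hepatocyte and kidney tubule markers, 4 of 6 measured, summed to 0.2 and 3.21 FPKM in CTdel, 0.31 and 4.7 in ICN and 0.05 and 3.04 in con. Macrophage and dendritic markers, 6 of 7 measured, were not low, and summed to 106 and 77.6 FPKM in CTdel, 71.8 and 24.1 in ICN and 62.7 and 36.5 in con. Itgax, a dendritic cell integrin, rose in CTdel (limma adjusted p = 0.017), with 32.52 and 22.52 FPKM in CTdel, 5.97 and 1.38 FPKM in ICN and 0.02 and 0 FPKM in con. No measured marker of these lists was at 0 in all 6 libraries, and the part of other cells in the results was not tested.

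Genes with the closest pattern across the 6 libraries were found by Pearson correlation with the mean profile of the 7 genes, centred within tables. Because of the choice of genes this profile is mainly ICN against the rest, and 656 other genes had r of at least 0.9. The highest were Zmynd8 and Lrrc2 (0.999 each), Gmeb1 (0.998), Ranbp9 and Hist1h4k (0.997 each). A high r does not speak of size, and Zmynd8 had 25.88 and 18.8 FPKM in CTdel, 33.36 and 30.43 FPKM in ICN and 24.56 and 19.56 FPKM in con. Among the 7 genes r ran from 0.951 (Bc1) to 0.985 (Casc4).

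The deposited annotation says little of what the 7 genes share. Of the 7, 3 carry a Biological Process term in the authors' deposited table, P2rx7 with 46 such terms, against 59.9% of tested genes, and 3 carry no Gene Ontology term, against 29.8%. They lie on 6 chromosomes, and their levels in ICN run from above 26.1% of tested genes (Trim69) to above 99% (Bc1).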

How the data were processed

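Messenger RNA libraries (MGIEasy mRNA kit, per the labels' protocols) of 6 BaF3 samples, 2 per group, were used. The authors deposited FPKM per gene, with the libraries of each replicate number in their own table, per the file headers, and with Gene IDs and annotation terms. The submitters' processing notes name mm10 and hg19 as builds and RSEM, Bowtie2 and HISAT2 as tools, with no role given. The tables held 17877 and 17868 genes, 16799 in both, and 26 symbols turned into dates were restored from Gene IDs. Coordinates came from RefSeq for GRCm38.p6, where 18898 of 18946 IDs were found. All per-sample columns were used. Another gene of the same set is neither reported nor drawn here.

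The test was limma 3.58.1 (R 4.3.3) on log2(FPKM + 1), 2-sided, with an intensity trend, for 11050 genes with at least 1 FPKM in at least 2 libraries. The model held group and table and had 2 residual degrees of freedom, with a median prior of 3.82. It was tested on simulated data. FPKM give no depth, so no counting interval was computed. The same con libraries serve every comparison with con.

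The members and lists were chosen with earlier results of these data known. Named were the 7 genes, Notch1, nearest neighbours, paralogues, called list genes or up to 2 with the smallest p, and the 5 most similar genes. Ptcra, B2m, Patl2, Gm38415, Lrrc25 and Oraov1 are neighbours or list genes named beside these. Alternatives covered the table term, pseudocount, filter, scaling, libraries fitted, threshold and each library left out.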

Additional observations from a re-analysis of the deposited data

Results flagged for a closer look

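Foxr1 and Bc1 had values on opposite sides of con in CTdel and in ICN. CTdel lay below con in both tables, by −0.62 for Foxr1 and −0.69 for Bc1 in the fit on log2(FPKM + 1), and ICN lay above con in both tables, by 1.43 and 1.37. The ICN direction was set by the choice of the genes. The con libraries are shared and the choice held CTdel below ICN, so the CTdel side adds little. The difference between the directions was not tested. By limma with Benjamini-Hochberg adjustment neither CTdel value passed (adjusted p = 0.664 and 0.435).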

How the results depend on the processing

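For the 7 genes, 0 passed in CTdel against con under every setting run. The sign of their ICN minus con and CTdel minus ICN values is fixed by the choice of genes. Without the replicate block, CTdel against con called 130 genes in place of 156, ICN against con 3 in place of 4, and 0 of the 7 genes passed. Deviations of same-numbered libraries had r of 0.236 (CTdel and ICN), 0.326 (CTdel and con) and −0.0988 (ICN and con). Each number has its own table, so pairing of the samples and an effect of the table cannot be told apart. The number of genes called depended strongly on the setting. CTdel against con called 0 with no filter, 730 with only its 2 groups fitted, 262 at a threshold of 0.1 and 109 to 731 with a library left out. ICN against con called 0 with no filter, 162 with only its 2 groups, 11 at 0.1 and 11 to 1470 with a library left out, most without ICN replicate 1. CTdel against ICN called 2, 0 with a pseudocount of 0.1 or no filter, 1 with the filter at 5 FPKM, and 2 to 891 with a library left out. Trim69, Foxr1, Gm38415 and Lrrc25 did not pass the filter at 5 FPKM and have no value there. Sign changes occurred in CTdel against con. For Casc4 the value was −0.000856 with quantile scaling and −0.53 to 0.63 with a library left out. With a library left out, Pbld1 ranged from −0.27 to 0.24, Trim69 from −0.06 to 0.99 and P2rx7 from −0.53 to 1.41. Gm38415 was at −0.40 with quantile scaling and from −0.10 to 0.15 with a library left out. The 1951 genes with ICN highest became 69 at 2-fold, 13 at 4-fold, 3886 with no filter, 3851 and 4371 in single tables and 1211 over both tables. Within 500 kb 1 neighbour was called, in place of 0 nearest ones. The list genes called, 1, became 2 with no block, 4 with a pseudocount of 0.1, 0 with no filter, 3 with the filter at 5, 36 with only 2 groups and 3 to 64 with a library left out. Of the start windows, 1 held GTGGGAA and 0 held the interferon element, in place of 3 for TGGGAA. These list, Gm38415, 1211 and interferon element settings were chosen after the data were seen. Dtx1, Itgax and Lrrc25 were examined under every setting that kept them, after their calls were seen. With no filter they did not pass in CTdel against con (limma adjusted p = 0.134, 0.139 and 0.139). Dtx1 and Itgax passed under every other setting run. The causes were not tested. With 2 libraries a group and unknown read totals, differences of genes under 1 FPKM in CTdel and con are the least certain.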

Other observations

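The 69 genes with ICN at least 2-fold above CTdel and con in both tables, which hold the 7 genes, differed in kind from all tested genes. Of them 8 (11.6%) were histone cluster genes, against 0.398% of tested genes, and 11 (15.9%) were microRNA or small nucleolar RNA genes, against 2.02%. Protein-coding genes made up 69.6%, against 93.1%. Below Pbld1 in ratio, apart from the 7 genes, were the Y RNA gene Rny1 (5.39), the histone genes Hist1h4c (4.88), Hist2h2bb (4.21) and Hist1h4k (3.74), and Gm38415 (4.35). Rny1, Hist1h4c, Hist2h2bb and Gm38415 were under 1 FPKM in every CTdel and con library, so their ratios rest on small values. Hist1h4k had 0.87 and 0.79 FPKM in CTdel, 3.25 and 7.44 FPKM in ICN and 0.85 and 1.27 FPKM in con, so both ICN libraries lay above the other 4. Of the 11 microRNA or small nucleolar RNA genes, 6 were listed at 0 in CTdel and con and at 1.19 to 4.1 FPKM in ICN. Some of these were nearly equal in the ICN libraries (Mir6976, 2.05 and 2.03 FPKM) or nearly doubled (Mir7071, 1.67 and 3.31 FPKM). Such steps may be those of single fragments on short genes, so the share of 15.9% is uncertain. How far an mRNA kit captured small RNA and histone transcripts was not tested. Since ICN against con chose the 69 genes, the values are a description.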
